A study of Mus musculus with 15 samples.

Results

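Messenger RNA of 8 antioxidant and detoxifying genes that the transcription factor Nrf2 is known to drive was followed in mouse hearts after ischemia and reperfusion. The genes Gclc, Gclm, Slc7a11, Gsr, Txnrd1, Srxn1, Hmox1 and Nqo1 were taken by name, and all 8 were found among the 16658 genes of the deposited table and among the 13541 genes that were tested. Every mouse was a male C57BL/6 animal of 8 to 10 weeks. The groups were activated protein C (aPC, 1 mg/kg, given 30 min before surgery), rivaroxaban (a factor Xa inhibitor, 3 mg/kg for 7 days before surgery), dabigatran (a thrombin inhibitor, 10 mg/kg for 7 days before surgery), untreated, and sham. Dosing with all 3 drugs resumed 2 h after the operation. The left anterior descending coronary artery was tied for 90 min and reperfusion lasted 24 h. The labels describe this operation once for the whole study, so "untreated" and "sham" are used as the labels name them. The tissue joined the infarct with the muscle around it, so a level is an average over injured and spared heart.

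The table held 2 aPC libraries (replicates aPC-791 and aPC-792), 2 rivaroxaban libraries (Riva-313 and Riva-319), 2 dabigatran libraries (Dabi-202 and Dabi-204), 2 untreated libraries (17 and 19) and 3 sham libraries (003, 006 and 007). The other 4 labelled samples were not analysed here. Levels are log2 CPM, in which the reads of a gene are scaled to the size of its library. Reads on listed genes ran from 26203566 to 36135006 per library. The members themselves had from 68 reads (Slc7a11) to 7882 reads (Txnrd1) in a library. The untreated pair stood apart from each other: the median gene differed by 0.40 log2 units between these libraries, against 0.14 to 0.29 within the other groups. Since all groups share 1 estimate of the spread, standard errors against the untreated pair run small. Cardiomyocyte markers were plentiful in every library, with 8 of 10 in the table and summed levels of 49610 to 94560 CPM.

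Nrf2 is a transcription factor that Keap1 holds in the cytoplasm and marks for destruction. Oxidants and electrophiles modify Keap1, Nrf2 then builds up, pairs with a small Maf protein and binds antioxidant response elements near its target genes, while Bach1 competes for the same elements. The targets make and recycle glutathione, reduce thioredoxin and peroxiredoxins, break down heme and reduce quinones, and the program is best known in heart for limiting oxidative damage when blood flow returns.

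The promoters were searched for the letters of such elements. RefSeq windows on build GRCm38.p6 were matched for 5 of the 8 members (Srxn1, Slc7a11, Gclm, Txnrd1 and Nqo1), and the 250 bases before each start were searched on both strands for 3 motifs. The core of the antioxidant response element, TGACNNNGC, occurred in 10.2% of 32851 promoters. The AP-1 site TGANTCA, whose letters can lie inside an antioxidant response element, occurred in 6.75%, and the amino acid response element TGATGNAA, which Atf4 binds, in 3.45%. The 4 stretches that held a match are shown, 5′ to 3′ on the strand of the gene, with each match in capitals.
Srxn1: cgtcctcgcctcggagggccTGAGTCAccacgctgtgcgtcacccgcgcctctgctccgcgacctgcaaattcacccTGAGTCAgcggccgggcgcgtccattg
Slc7a11: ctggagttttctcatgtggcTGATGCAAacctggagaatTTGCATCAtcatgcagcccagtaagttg
Gclm: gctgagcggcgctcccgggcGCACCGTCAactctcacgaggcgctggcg
Txnrd1: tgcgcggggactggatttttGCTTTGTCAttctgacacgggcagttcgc
The Srxn1 stretch (chr2:152105402-152105505, plus strand) held 2 AP-1 matches, at -102 to -96 and at -45 to -39 from the start. With the gc that follows, the match at -45 to -39 differs from the searched antioxidant core only in TGAG in place of TGAC. It was therefore not counted as an antioxidant core. The Slc7a11 stretch (chr3:50443633-50443699, minus strand) held 2 amino acid response elements that face each other, at -66 to -59 and at -47 to -40. Gclm (chr3:122245403-122245451, plus strand) and 1 of 3 Txnrd1 starts (chr10:82859094-82859142, plus strand) each had 1 antioxidant core, read on the opposite strand. The Nqo1 window held none of the 3 motifs. A match is a description of the letters and shows no binding in these hearts.

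Gclc encodes the catalytic subunit of glutamate-cysteine ligase, the rate-limiting enzyme of glutathione synthesis (chromosome 9, 77754535 to 77794485, plus strand, GENCODE M21 on mm10). Its level was 4.23 and 3.99 log2 CPM in aPC, 4.22 and 4.34 in rivaroxaban, 5.06 and 4.95 in dabigatran, 4.96 and 6.23 in untreated, and 4.34, 4.16 and 4.22 in sham. Dabigatran and untreated libraries all lay above every aPC, rivaroxaban and sham library, and 1 untreated library, replicate 19, stood alone at the top. Gclc was called higher in untreated than in sham hearts, by 1.36 ± 0.29 log2 units (limma standard error, adjusted p = 0.0195, 2.56-fold). The dabigatran difference from sham, 0.77 ± 0.29, did not pass (adjusted p = 0.0903). In bulk tissue, fewer cells of a type and less RNA per cell cannot be told apart, here or for any gene that follows.

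Gclm is the modifier subunit that raises the activity of the Gclc protein (chromosome 3, 122245557 to 122270732, plus strand). It had 3.76 and 3.09 log2 CPM in aPC, 2.83 and 3.20 in rivaroxaban, 3.82 and 2.88 in dabigatran, 4.36 and 3.36 in untreated, and 3.25, 2.70 and 3.30 in sham. Only the untreated pair lay wholly above sham, and the gene passed no test in any of the 10 comparisons. Its exons share 296 bases with the opposite-strand transcript Gm17494 and 244 with the pseudogene Gm6061, so its reads are uncertain. The other 7 members share no exon base with another annotated gene.

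The subunits of glutamate-cysteine ligase did not keep the same proportion in the untreated pair. Gclc minus Gclm within a library was 0.47 and 0.90 log2 units in aPC, 1.39 and 1.14 in rivaroxaban, 1.24 and 2.07 in dabigatran, 0.60 and 2.87 in untreated, and 1.09, 1.46 and 0.92 in sham. Untreated replicate 17 was the richer in Gclm and untreated replicate 19 the richer in Gclc.

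Slc7a11 is the light chain of the cystine importer that feeds glutathione synthesis (chromosome 3, 49892526 to 50443614, minus strand). Its level was 1.99 and 1.95 log2 CPM in aPC, 1.35 and 1.20 in rivaroxaban, 3.69 and 3.35 in dabigatran, 1.91 and 2.73 in untreated, and 1.32, 1.65 and 1.27 in sham. Both dabigatran libraries lay above all 9 others. Slc7a11 rose in dabigatran hearts by 2.11 ± 0.27 log2 units against sham (4.32-fold, adjusted p = 0.00147) and by 1.20 ± 0.30 against untreated (adjusted p = 0.0271). The call against sham held with each library left out. The call against untreated was lost without dabigatran replicate Dabi-202 (1.03, adjusted p = 0.151), without dabigatran replicate Dabi-204 (1.37, adjusted p = 0.05) and under quantile normalization (0.98, adjusted p = 0.0717).

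The heavy chain partner of Slc7a11, Slc3a2, also rose in dabigatran against sham, by 0.92 ± 0.23 (adjusted p = 0.0208). This call was lost without dabigatran replicate Dabi-202 (0.58, adjusted p = 0.230) and without sham replicate 003, 006 or 007 (adjusted p = 0.0546 to 0.0590).

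Gsr, glutathione reductase, returns oxidized glutathione to its reduced form with NADPH (chromosome 8, 33652523 to 33698163, plus strand). It showed 5.33 and 5.02 log2 CPM in aPC, 4.68 and 5.06 in rivaroxaban, 6.75 and 6.34 in dabigatran, 5.82 and 5.79 in untreated, and 5.08, 5.05 and 5.01 in sham. The groups fell into steps without overlap, with dabigatran at the top, untreated next, and aPC, rivaroxaban and sham together below. Gsr rose in dabigatran by 1.50 ± 0.17 against sham (2.82-fold, adjusted p = 0.00105) and by 0.74 ± 0.18 against untreated (adjusted p = 0.0259), and in untreated by 0.76 ± 0.17 against sham (adjusted p = 0.0212). Only the first of these held with each library left out. The dabigatran call against untreated was lost without dabigatran replicate Dabi-202 (0.54, adjusted p = 0.160) and without untreated replicate 19 (0.72, adjusted p = 0.0579).

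Txnrd1 encodes cytosolic thioredoxin reductase, which keeps thioredoxin reduced (chromosome 10, 82833951 to 82897712, plus strand). Levels were 7.01 and 6.55 log2 CPM in aPC, 6.02 and 6.22 in rivaroxaban, 8.22 and 7.25 in dabigatran, 7.91 and 7.95 in untreated, and 6.54, 6.44 and 6.59 in sham. Dabigatran and untreated libraries overlapped each other and lay above all the rest, while both rivaroxaban libraries lay below every sham library. Txnrd1 rose by 1.41 ± 0.24 in untreated (2.65-fold, adjusted p = 0.00990) and by 1.21 ± 0.24 in dabigatran (2.31-fold, adjusted p = 0.00882), both against sham. The untreated call held with each library left out, and the dabigatran call was lost without dabigatran replicate Dabi-202 (0.72, adjusted p = 0.0805). The rivaroxaban difference from sham was -0.40, with a 95% interval of -0.93 to 0.14 (adjusted p = 0.990).

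Srxn1, sulfiredoxin, repairs over-oxidized peroxiredoxins (chromosome 2, 152105516 to 152111376, plus strand). Its 11 values were 6.09 and 5.24 log2 CPM in aPC, 4.74 and 5.17 in rivaroxaban, 7.20 and 6.16 in dabigatran, 7.03 and 4.13 in untreated, and 5.25, 5.08 and 5.33 in sham. The untreated pair held both the second highest and the lowest value of the series, a gap of 2.90 log2 units that only 80 of the 13541 genes (0.591%) exceeded in that pair. Txnrd1 minus Srxn1 was 3.83 in untreated replicate 19 and 0.88 in untreated replicate 17, against 0.92 to 1.36 in the libraries of the other groups. No comparison called Srxn1. The value in untreated against sham was 0.36 ± 0.66 over both libraries, and without untreated replicate 17 it was -1.09 (adjusted p = 0.0475).

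**Figure D1:**
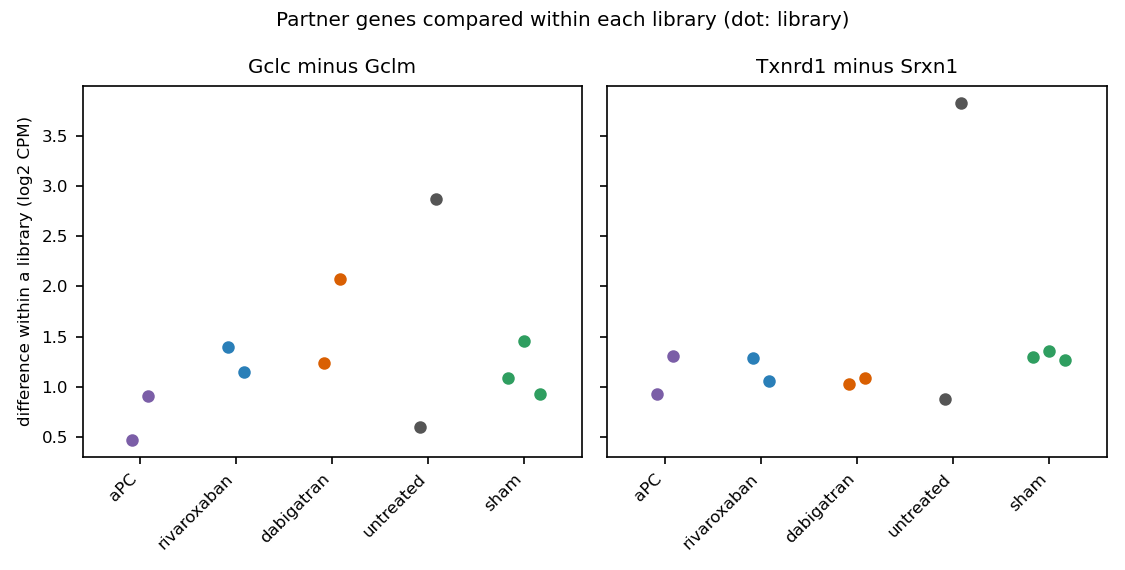
Difference in log2 CPM between partner genes within each library (dots), Gclc minus Gclm on the left and Txnrd1 minus Srxn1 on the right, for aPC, rivaroxaban, dabigatran, untreated and sham hearts. Untreated replicate 19 is the highest point in both panels, at 2.87 and 3.83.

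Hmox1 encodes heme oxygenase 1, the inducible enzyme that splits heme into biliverdin, iron and carbon monoxide (chromosome 8, 75093621 to 75100589, plus strand). It reached 5.75 and 4.76 log2 CPM in aPC, 3.77 and 5.40 in rivaroxaban, 7.46 and 6.36 in dabigatran, 6.31 and 6.77 in untreated, and 5.11, 4.91 and 4.31 in sham. Dabigatran and untreated libraries were again above all others. The rivaroxaban pair was 1.63 apart, a gap that 34 genes (0.251%) exceeded there. Hmox1 rose by 2.13 ± 0.49 in dabigatran (4.38-fold, adjusted p = 0.0163) and by 1.76 ± 0.49 in untreated (3.39-fold, adjusted p = 0.0461) against sham. The dabigatran call was lost without dabigatran replicate Dabi-202 (1.58, adjusted p = 0.196) and without sham replicate 007 (1.90, adjusted p = 0.0570). The untreated call was lost under quantile normalization (1.69, adjusted p = 0.0502), and also without aPC replicate aPC-791 or aPC-792 (1.76, adjusted p = 0.0519 each), untreated replicate 19 (1.53, adjusted p = 0.186) or sham replicate 003, 006 or 007 (adjusted p = 0.0841 to 0.120).

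Nqo1, a quinone reductase, is widely used as a readout of Nrf2 activity (chromosome 8, 107388225 to 107403206, minus strand). Here it had 6.52 and 6.03 log2 CPM in aPC, 6.17 and 6.50 in rivaroxaban, 5.68 and 5.45 in dabigatran, 6.35 and 5.72 in untreated, and 6.27, 5.88 and 5.70 in sham. Both dabigatran libraries lay below all 9 others, whereas in Slc7a11 and Gsr they lay above all 9. No comparison called it, and the value closest to the threshold was in rivaroxaban against dabigatran (0.77, 95% interval 0.20 to 1.34, adjusted p = 0.0540). That difference passed in 4 of 8 other settings and in 2 of 11 fits with a library left out. Across the 11 libraries, as a description over values that share their scaling, Nqo1 had a Pearson r of -0.34 with the mean of the other 7 members, where Txnrd1 had 0.93, Hmox1 0.93, Gsr 0.93, Slc7a11 0.75, Gclm 0.62, Gclc 0.59 and Srxn1 0.56.

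**Figure D2:**
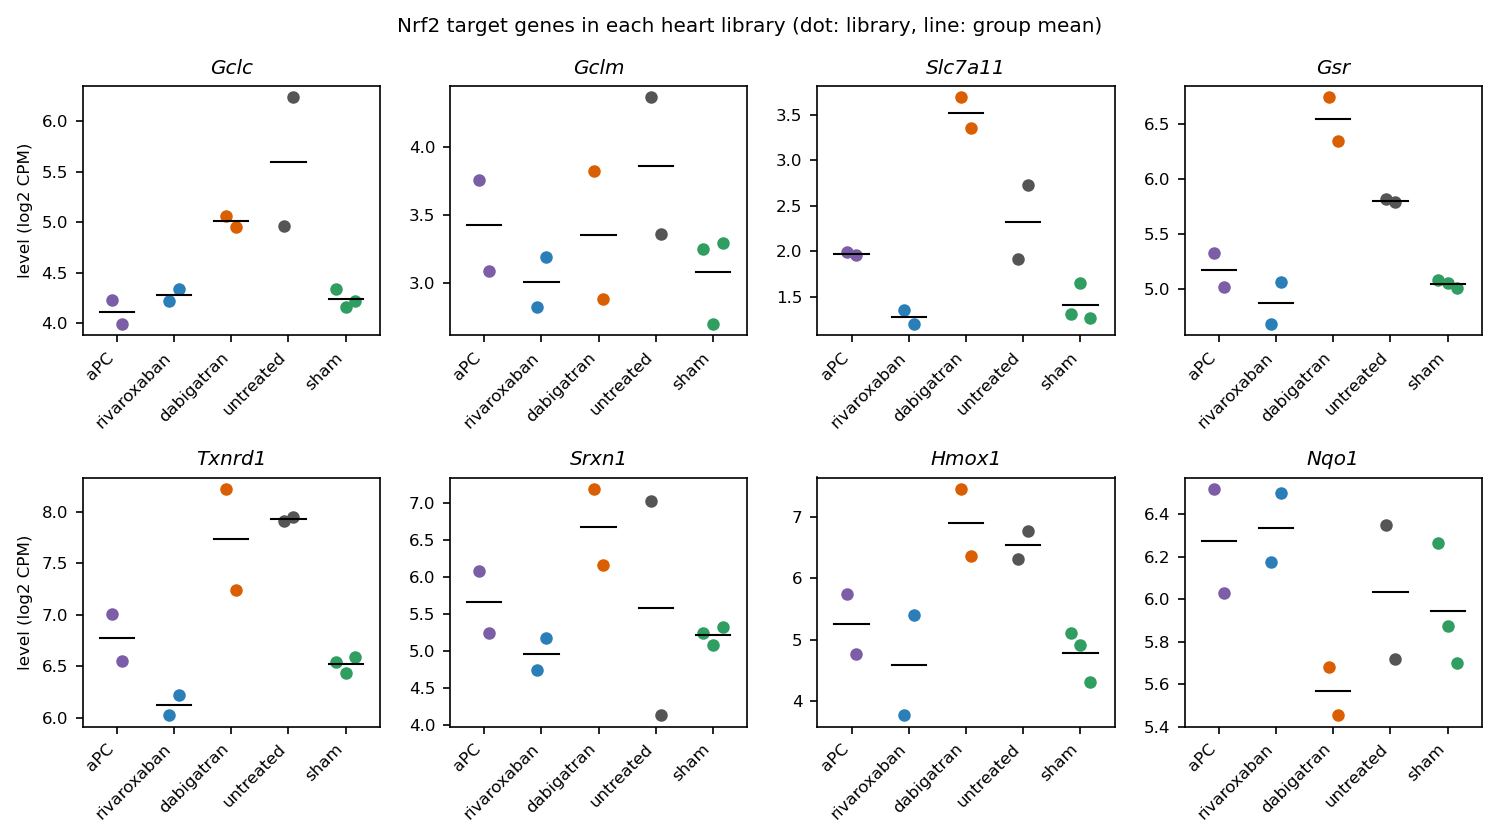
Level in log2 CPM of each member gene in every library (dots) with the group mean (line), for aPC, rivaroxaban, dabigatran, untreated and sham hearts; each panel has its own scale. Slc7a11 and Gsr are highest in the 2 dabigatran libraries, Nqo1 is lowest there, and Srxn1 splits the 2 untreated libraries at 7.03 and 4.13.

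Set on a scale per kilobase of exon, which allows levels of different genes to be ordered, Nqo1 was the most abundant member (mean 5.39 log2 CPM per kb over the 11 libraries). Hmox1 followed at 4.73, Txnrd1 at 4.15, Srxn1 at 4.09, Gsr at 3.99 and Gclc at 2.70. Gclm at 0.67 and Slc7a11 at -1.76 were the scarcest. The length joins all annotated exons of a gene, 7086 bases for Txnrd1 and 13922 for Slc7a11, and may exceed that of the transcripts present. Before division by length, Txnrd1 was above Nqo1 (mean 6.97 and 6.02 log2 CPM).

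By the moderated F test over the 5 groups, Gsr (adjusted p = 0.00132), Slc7a11 (0.00298), Txnrd1 (0.00339), Gclc (0.0183) and Hmox1 (0.0194) differed, and Gclm, Nqo1 and Srxn1 did not pass (0.354, 0.141 and 0.286). These 5 of 8 compare with 30.2% of all genes tested.

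Untreated hearts differed from sham hearts in 4 members, Txnrd1, Gclc, Gsr and Hmox1, all higher, where 5.07% of all genes tested were called higher. All 8 differences were positive, with a median of 0.84 log2 units over the members and -0.03 over all genes. Slc7a11 missed the threshold at 0.91 ± 0.27 (adjusted p = 0.0584). With library weights, which gave each untreated library 0.24 against 0.66 to 3.15 elsewhere, no member was called (adjusted p = 0.102 to 0.413 for these 4). Of all genes, 25 were called with these weights, against 1435 as reported. Only Txnrd1 was called without sham replicate 003, 006 or 007, where 447, 266 and 711 of all genes were called. Without untreated replicate 19 only Txnrd1 and Gclc kept their calls and Srxn1 was added as higher, while fewer of all genes were called. Without untreated replicate 17 more members were called, among them Srxn1 as lower, and more of all genes too. A fit of these 2 groups alone lost Gclc (adjusted p = 0.0840) and called 471 of all genes. Gclc lay at an adjusted p of 0.0529 to 0.0751 without any 1 sham library, and Gsr at 0.0560 to 0.0746, or 0.0579 without untreated replicate 19. Neutrophil markers (8 of 8 in the table, none at 0) summed to 108 to 165 CPM in untreated and 31.9 to 50.3 CPM in sham hearts, with 6 of 8 called higher. Monocyte and macrophage markers (10 of 10 in the table, none at 0) summed to 281 to 329 CPM in untreated and 482 to 667 CPM in sham hearts, with 5 of 10 called lower and 2 higher. Smooth muscle and pericyte markers summed to 573 to 800 CPM in untreated and 975 to 1048 CPM in sham hearts, with 1 of 4 called lower. The part of these markers in the result was not tested.

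Rivaroxaban hearts had lower levels than untreated hearts for Txnrd1 (-1.80 ± 0.26, adjusted p = 0.00598), Gclc (-1.32 ± 0.32, adjusted p = 0.0328) and Gsr (-0.93 ± 0.18, adjusted p = 0.0177). These 3 of 8 stand beside 4.45% of all genes called lower. Hmox1 (-1.95 ± 0.54, adjusted p = 0.0508) and Slc7a11 (-1.04 ± 0.30, adjusted p = 0.0572) missed narrowly, and Nqo1 at 0.30 was the only positive difference. No member was called with library weights or in a fit of these 2 groups alone (Txnrd1 adjusted p = 0.0618 and 0.0663). Of all genes, 37 and 0 were called there, against 1147 as reported. Without rivaroxaban replicate Riva-313 the member calls were lost (Txnrd1 -1.70), and calls over all genes also fell. Without untreated replicate 17 more members were called, and more of all genes too. Gclc was also lost without rivaroxaban replicate Riva-319 (adjusted p = 0.137) or without sham replicate 003, 006 or 007 (0.0538 to 0.0558), and Gsr without rivaroxaban replicate Riva-319 (0.0507). Neutrophil markers summed to 18.3 to 41.9 CPM in rivaroxaban and 108 to 165 CPM in untreated hearts, and monocyte and macrophage markers to 379 to 419 CPM in rivaroxaban and 281 to 329 CPM in untreated hearts. Smooth muscle and pericyte markers summed to 985 to 1047 CPM in rivaroxaban and 573 to 800 CPM in untreated hearts, and cardiomyocyte markers to 62970 to 67820 CPM in rivaroxaban and 73350 to 94560 CPM in untreated hearts. Fibroblast markers summed to 2010 to 2103 CPM in rivaroxaban and 1380 to 1869 CPM in untreated hearts, with 1 of 6 called higher. The part of all these markers in the differences was not tested.

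aPC hearts likewise had lower levels than untreated hearts for Gclc (-1.48 ± 0.32, adjusted p = 0.0140), Txnrd1 (-1.15 ± 0.26, adjusted p = 0.0183) and Gsr (-0.63 ± 0.18, adjusted p = 0.0390), 3 of 8 where 10.2% of all genes were called lower. Hmox1 was -1.28 ± 0.54 (adjusted p = 0.116), and Slc7a11, Gclm, Srxn1 and Nqo1 overlapped between the groups. None was called in a fit of these 2 groups alone, and only Gclc with library weights. Of all genes, 3 and 234 were called there, against 2384 as reported. Without aPC replicate aPC-792 the member calls were lost (Gclc -1.37, Txnrd1 -0.92 and Gsr -0.48), and calls over all genes also fell. Without untreated replicate 17 Slc7a11 was added as lower and Srxn1 as higher, while more of all genes were called too. Gsr was also lost without aPC replicate aPC-791 (0.0663), untreated replicate 19 (0.0683) or any 1 sham library (0.0561 to 0.0630), and under quantile normalization (0.0502). Monocyte and macrophage markers summed to 665 to 720 CPM in aPC and 281 to 329 CPM in untreated hearts, with 5 of 10 called higher and 1 lower. Fibroblast markers summed to 2238 to 2332 CPM in aPC and 1380 to 1869 CPM in untreated hearts, with 0 of 6 called by limma. Endothelial markers summed to 833 to 927 CPM in aPC and 965 to 1151 CPM in untreated hearts, with 2 of 6 called lower and 1 higher. Neutrophil markers summed to 42.6 to 109 CPM in aPC and 108 to 165 CPM in untreated hearts, which overlap, with 1 of 8 called lower. The part of these markers in the differences was not tested.

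Dabigatran hearts differed from untreated hearts in Gsr and Slc7a11, both higher as given above, 2 of 8 where 8.71% of all genes were called higher. The members' median was 0.09 and that of all genes 0.05, with 4 positive and 4 negative differences. Txnrd1 (-0.20, 95% interval -0.78 to 0.39) and Hmox1 (0.37, -0.82 to 1.56) overlapped between the groups. The count was 0 with library weights and in a fit of these 2 groups alone, where 125 and 170 of all genes were called. As reported, 1868 of all genes were called. Both member calls were lost without dabigatran replicate Dabi-202, Slc7a11 without dabigatran replicate Dabi-204, and Gsr without untreated replicate 19. In each of these fits fewer of all genes were called. Without untreated replicate 17 Srxn1 was added as higher and Gclc as lower, while more of all genes were called. Neutrophil markers summed to 592 to 1041 CPM in dabigatran and 108 to 165 CPM in untreated hearts, with 5 of 8 called higher. Monocyte and macrophage markers summed to 866 to 927 CPM in dabigatran and 281 to 329 CPM in untreated hearts, with 9 of 10 called higher. Cardiomyocyte markers summed to 49610 to 50980 CPM in dabigatran and 73350 to 94560 CPM in untreated hearts, with 2 of 8 called lower. The part of these markers in the differences was not tested. The comparisons with untreated hearts share that pair, so they are not independent of each other.

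Against sham, dabigatran hearts had 4 members higher (Slc7a11, Hmox1, Gsr and Txnrd1), where 11.7% of all genes were called higher. The members' median was 1.34 and that of all genes 0.01. All members but Gclm kept the groups apart, 6 of them with dabigatran higher (30% of all genes did so) and Nqo1 with dabigatran lower (25.9%). The count was 2 without dabigatran replicate Dabi-202 and up to 6 with another library left out. Neutrophil markers summed to 592 to 1041 CPM in dabigatran and 31.9 to 50.3 CPM in sham hearts, and monocyte and macrophage markers to 866 to 927 CPM in dabigatran and 482 to 667 CPM in sham hearts. Of these, 8 of 8 neutrophil and 5 of 10 monocyte and macrophage markers were called higher. Cardiomyocyte markers summed to 49610 to 50980 CPM in dabigatran and 64850 to 84580 CPM in sham hearts, with 2 of 8 called lower. Fibroblast markers summed to 1207 to 1548 CPM in dabigatran and 1852 to 2113 CPM in sham hearts. Smooth muscle and pericyte markers summed to 659 to 696 CPM and 975 to 1048 CPM, and endothelial markers to 910 to 994 CPM and 1000 to 1035 CPM. In each of these last 3 lists 1 gene was called lower. The part of these shifts in the member levels was not tested.

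No member was called in rivaroxaban or aPC hearts when these were set against sham. There, limma called 0 of 8 for rivaroxaban and 0 of 8 for aPC, with 0 members of 8 at an unadjusted p under 0.05 in either comparison and 0 by voom. The rivaroxaban background was 0% of all genes (761 at an unadjusted p under 0.05, and 0 by voom). The aPC background was 1.17% (2307 at an unadjusted p under 0.05, and 80 by voom). The intervals still allow sizeable differences, as for Hmox1 in rivaroxaban (-1.28 to 0.90) and in aPC (-0.61 to 1.57), and are narrowest for Gsr (-0.54 to 0.19 in rivaroxaban and -0.24 to 0.49 in aPC). aPC against rivaroxaban also called 0 of 8, where 1.54% of all genes were called. There 2 members had an unadjusted p under 0.05, Txnrd1 (0.65 ± 0.26, adjusted p = 0.195) and Slc7a11 (0.70 ± 0.30, adjusted p = 0.219), and voom called 0. Of the 13541 genes tested, 2836 had an unadjusted p under 0.05, and voom called 117. The member count was 2 with library weights and 1 in a fit of these 2 groups alone.

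Between the oral anticoagulants, rivaroxaban minus dabigatran, the members had the largest median difference of the 10 comparisons, -1.64 log2 units, where all genes had -0.00. Rivaroxaban hearts were lower than dabigatran hearts in Hmox1 (-2.32 ± 0.54, adjusted p = 0.0129), Slc7a11 (-2.24 ± 0.30, adjusted p = 0.000982), Gsr (-1.67 ± 0.18, adjusted p = 0.000491) and Txnrd1 (-1.61 ± 0.26, adjusted p = 0.00268). These 4 of 8 compare with 14% of all genes called lower. Gclm overlapped between the groups (-0.34, 95% interval -1.25 to 0.56). Slc7a11, Gsr and Txnrd1 kept the call with each library left out, and Hmox1 lost it without rivaroxaban replicate Riva-313 (-1.51, adjusted p = 0.114) or without dabigatran replicate Dabi-202 (-1.77, adjusted p = 0.136). The count was 7 with library weights, in a fit of these 2 groups alone, and without untreated replicate 17 or 19, with Gclc and Srxn1 added as lower and Nqo1 as higher. Summed neutrophil markers were 18.3 to 41.9 CPM in rivaroxaban and 592 to 1041 CPM in dabigatran hearts, with 8 of 8 called lower. Monocyte and macrophage markers summed to 379 to 419 CPM in rivaroxaban and 866 to 927 CPM in dabigatran hearts, with 7 of 10 called lower. Cardiomyocyte markers summed to 62970 to 67820 CPM in rivaroxaban and 49610 to 50980 CPM in dabigatran hearts, with 0 of 8 called by limma. Fibroblast markers summed to 2010 to 2103 CPM in rivaroxaban and 1207 to 1548 CPM in dabigatran hearts, with 1 of 6 called higher. Smooth muscle and pericyte markers summed to 985 to 1047 CPM in rivaroxaban and 659 to 696 CPM in dabigatran hearts, with 2 of 4 called higher. The part of these markers in the differences was not tested.

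aPC hearts were lower than dabigatran hearts in Slc7a11 (-1.55 ± 0.30, adjusted p = 0.00666), Gsr (-1.37 ± 0.18, adjusted p = 0.00148) and Txnrd1 (-0.95 ± 0.26, adjusted p = 0.0284), 3 of 8 where 12.3% of all genes were called lower. Hmox1 missed at -1.65 ± 0.54 (adjusted p = 0.0521). Gsr kept the call with each library left out. Slc7a11 and Txnrd1 lost it without aPC replicate aPC-792 (adjusted p = 0.0507 and 0.191) or without dabigatran replicate Dabi-202 (0.0536 and 0.169), which leaves a count of 1. A fit of these 2 groups alone lost Txnrd1 (adjusted p = 0.0753) and added Gclc and Hmox1 as lower and Nqo1 as higher, which gave a count of 5. The count was 7 without untreated replicate 17 or 19, with Gclc, Hmox1 and Srxn1 added as lower and Nqo1 as higher. Centring each library on its median moved the median of all genes in this comparison by 0.13 log2 units, and the 3 calls remained. Neutrophil markers summed to 42.6 to 109 CPM in aPC and 592 to 1041 CPM in dabigatran hearts, with 7 of 8 called lower. Monocyte and macrophage markers summed to 665 to 720 CPM in aPC and 866 to 927 CPM in dabigatran hearts, with 4 of 10 called lower and 1 higher. Cardiomyocyte markers summed to 74720 to 79470 CPM in aPC and 49610 to 50980 CPM in dabigatran hearts, with 4 of 8 called higher. Fibroblast markers summed to 2238 to 2332 CPM in aPC and 1207 to 1548 CPM in dabigatran hearts, with 2 of 6 called higher. Smooth muscle and pericyte markers summed to 801 to 870 CPM in aPC and 659 to 696 CPM in dabigatran hearts, with 1 of 4 called higher and 2 lower. The part of these markers in the differences was not tested.

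**Figure D3:**
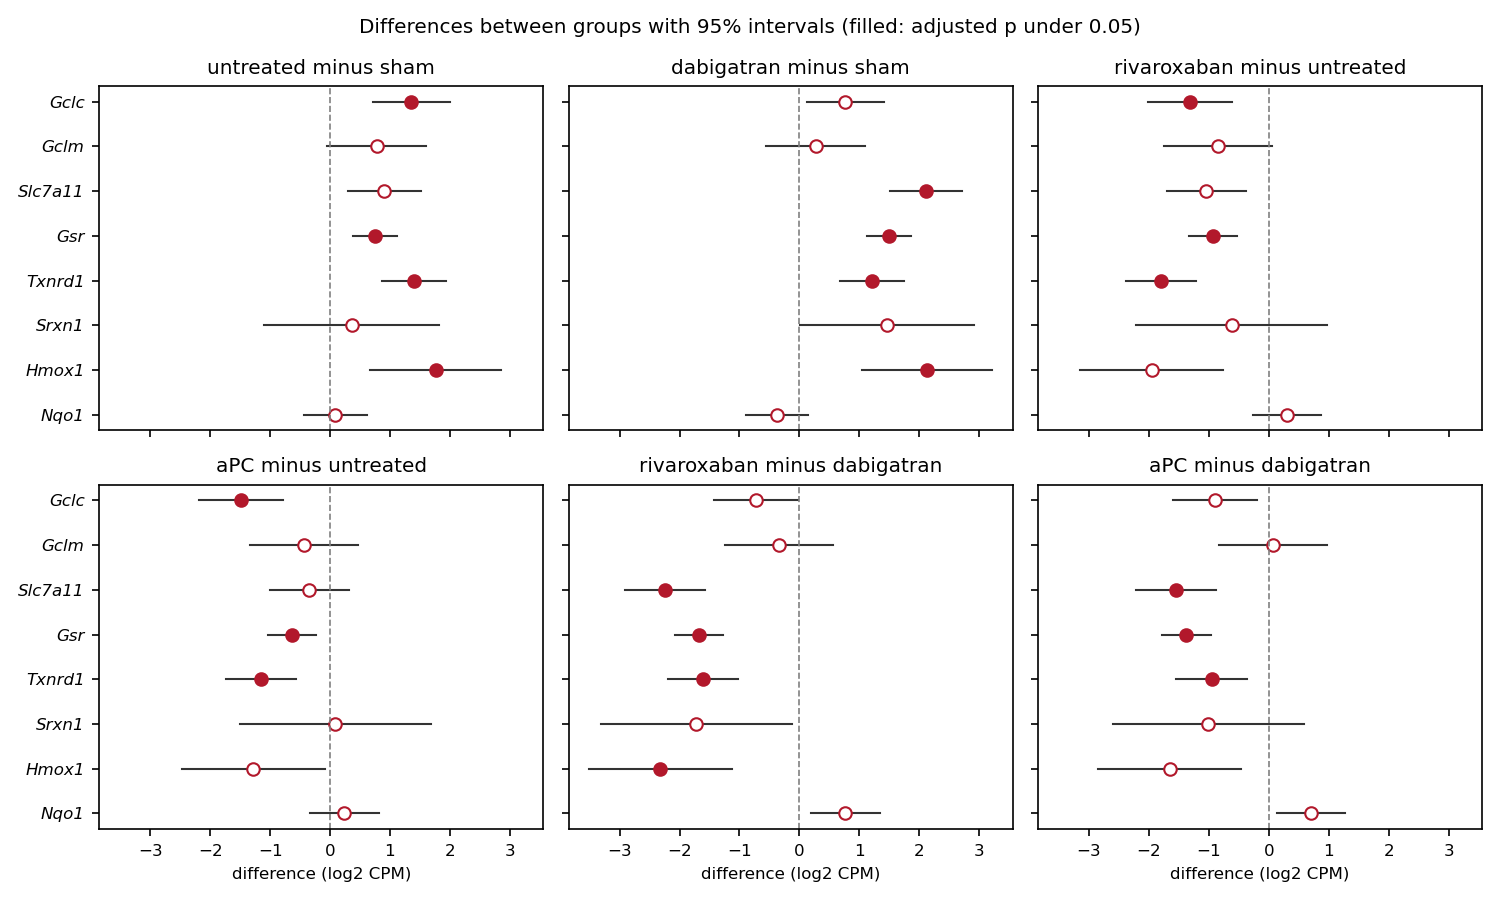
Difference between groups in log2 CPM for each member gene (dot) with its 95% interval (line) in 6 comparisons; a filled dot has an adjusted p under 0.05. The filled dots lie right of 0 against sham and left of 0 where rivaroxaban or aPC is set against untreated or dabigatran, while Nqo1 has no filled dot.

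Among 11 genes that regulate the pathway, untreated hearts had 2 higher than sham, Maff and Nfe2l2, where 5.07% of all genes were called higher. Maff, a small Maf protein that pairs with Nrf2, had 5.58 and 5.86 log2 CPM in untreated and 4.09, 3.69 and 4.06 in sham hearts (1.77 ± 0.29, adjusted p = 0.00752). Nfe2l2, the gene of Nrf2 itself, had 7.10 and 6.95 in untreated and 6.33, 6.08 and 6.38 in sham hearts (0.76 ± 0.19, adjusted p = 0.0348). In both genes the untreated libraries lay above sham. Maff was called with each library left out. Nfe2l2 was called in 3 of 11 such fits, those without dabigatran replicate Dabi-202, dabigatran replicate Dabi-204 or untreated replicate 17, and its adjusted p in the other 8 was 0.0521 to 0.124. The list's calls rose without untreated replicate 17, as did those of all genes, and Maff alone was called in those 8 fits. Keap1 (-0.00 ± 0.19, adjusted p = 0.993) and Bach1 (-0.14 ± 0.14, adjusted p = 0.514) passed no test in that comparison. In dabigatran against sham, Maff rose by 1.26 ± 0.29 (adjusted p = 0.0154), lost without dabigatran replicate Dabi-202 (0.187) or sham replicate 006 (0.0532), and Nfe2l2 was 0.38 ± 0.19 (adjusted p = 0.195).

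Other redox genes in the dabigatran hearts did not form a uniform rise. Atf4 is a stress factor that drives amino acid synthesis genes and also Slc7a11. Of a list of 10 genes, Atf4 itself and 9 of its targets, 6 were higher in dabigatran than in sham, Atf4 among them (1.42 ± 0.36, adjusted p = 0.0241), where 11.7% of all genes were called higher. The call of Atf4 was lost without dabigatran replicate Dabi-202 (0.71, adjusted p = 0.247) or any 1 sham library (adjusted p = 0.0565 to 0.0716). Asns, asparagine synthetase, had 4.57 and 4.41 log2 CPM in dabigatran and 1.93, 1.62 and 1.68 in sham hearts (2.75 ± 0.30, adjusted p = 0.000977). Psat1, an enzyme of serine synthesis, had 5.53 and 4.94 in dabigatran and 3.05, 2.87 and 2.53 in sham hearts (2.42 ± 0.24, adjusted p = 0.000977). Both dabigatran libraries lay well above sham in these genes, as they did in Slc7a11. Whether Atf4 had a part in the level of Slc7a11 was not tested. Ddit3 (0.20 ± 0.41) and Chac1 (0.36 ± 0.82) of the same list did not pass. The list's count was 3 without dabigatran replicate Dabi-202.

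NADPH is the electron donor of Gsr and Txnrd1. G6pdx, listed among the genes linked to NADPH supply, was not in the table. Of the 5 such genes tested, 3 were higher in dabigatran than in sham, against 11.7% of all genes. They were Pgd (1.18 ± 0.16, adjusted p = 0.00197), Taldo1 (0.69 ± 0.16, adjusted p = 0.0149) and Tkt (0.57 ± 0.13, adjusted p = 0.0155), all enzymes of the pentose phosphate pathway, while Me1 (-0.36 ± 0.12) and Idh1 (-0.45 ± 0.32) did not pass. Pgd was called with each library left out, and it was the only one of the list called without dabigatran replicate Dabi-202. Among subunits and partners of the superoxide-making NADPH oxidase of phagocytes, Rac2 (2.11 ± 0.20, adjusted p = 0.000977), Ncf4 (2.00 ± 0.29, adjusted p = 0.00213) and Ncf1 (1.98 ± 0.21, adjusted p = 0.000977) were higher in dabigatran than in sham. Each of these genes was called with any library left out, beside the neutrophil marker sums given above. Nox4, the form known from heart muscle and vessels, was -0.97 ± 0.44 (adjusted p = 0.152).

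Other glutathione genes were split, with 4 of 18 higher and 1 lower in dabigatran than in sham, where 11.7% of all genes were called higher and 6.82% lower. Glrx (1.16 ± 0.28), Slc3a2, Ggct (0.73 ± 0.14) and the exporter Abcc1 (0.65 ± 0.12) were higher, and the transferase Gstm1 was lower (-0.55 ± 0.11, adjusted p = 0.00882). Without dabigatran replicate Dabi-202 only 1 of the 18 was called, and without sham replicate 007 3 were. Gpx4, which removes lipid peroxides, was -0.23 ± 0.16 (adjusted p = 0.358). Other detoxifying enzymes were likewise divided, with 3 of 7 higher and 2 lower. Osgin1 (1.78 ± 0.34), Akr1b8 (1.62 ± 0.23) and Ugdh (0.65 ± 0.18) were higher, and Ephx1 (-1.06 ± 0.28) and Aox1 (-1.35 ± 0.38) were lower. Without dabigatran replicate Dabi-202 1 was called, without sham replicate 003 2 were, and without sham replicate 006 3 were. Of 4 superoxide dismutases and catalase none was higher and 1 was lower, Sod3 (-0.53 ± 0.14), and that count was 0 to 3 with a library left out. Of 11 other thioredoxin and peroxiredoxin genes 1 was higher, Txn1 (0.71 ± 0.17), and that count was 0 to 3. Of 9 heme and iron genes Tfrc was higher (1.52 ± 0.45) and Slc48a1 lower (-0.39 ± 0.12), with a count of 0 to 4.

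**Figure D4:**
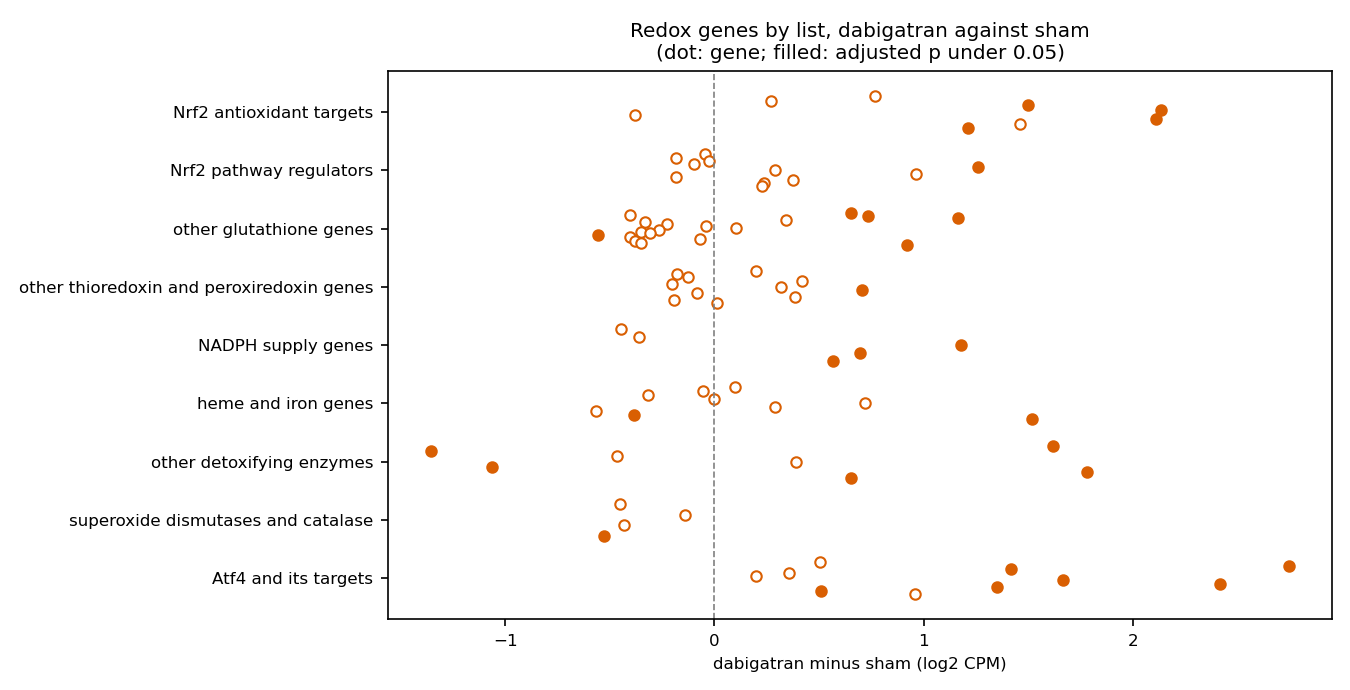
Difference between dabigatran and sham hearts in log2 CPM for each tested gene (dot) of 9 redox lists, the Nrf2 targets in the top row; a filled dot has an adjusted p under 0.05. Filled dots reach 2.75 among Atf4 and its targets and 2.13 among the Nrf2 targets, and lie on both sides of 0 among detoxifying and other glutathione genes.

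The mean of the 8 members, each centred over the 11 libraries, was 0.14 and -0.36 log2 units in aPC, -0.72 and -0.30 in rivaroxaban, 1.04 and 0.40 in dabigatran, 0.64 and 0.39 in untreated, and -0.30, -0.46 and -0.48 in sham. Dabigatran and untreated libraries were thus all above every other library. Of 11443 genes compared with this profile, Efhd2 followed it most closely (Pearson r = 0.98, Spearman rho = 0.95, n = 11 libraries), followed by Rhoc, Clec4d, Shc1, Rnf19b, Tox4, Ralb, Pak1ip1, Myc and Uchl1 (r = 0.96 to 0.97). Clec4d is a receptor of myeloid cells and Myc a growth-related transcription factor. The most opposed were Nfix (r = -0.98), Golga4 (-0.97) and Sort1 (-0.97). These values describe 11 libraries that share their groups and scaling.

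**Figure D5:**
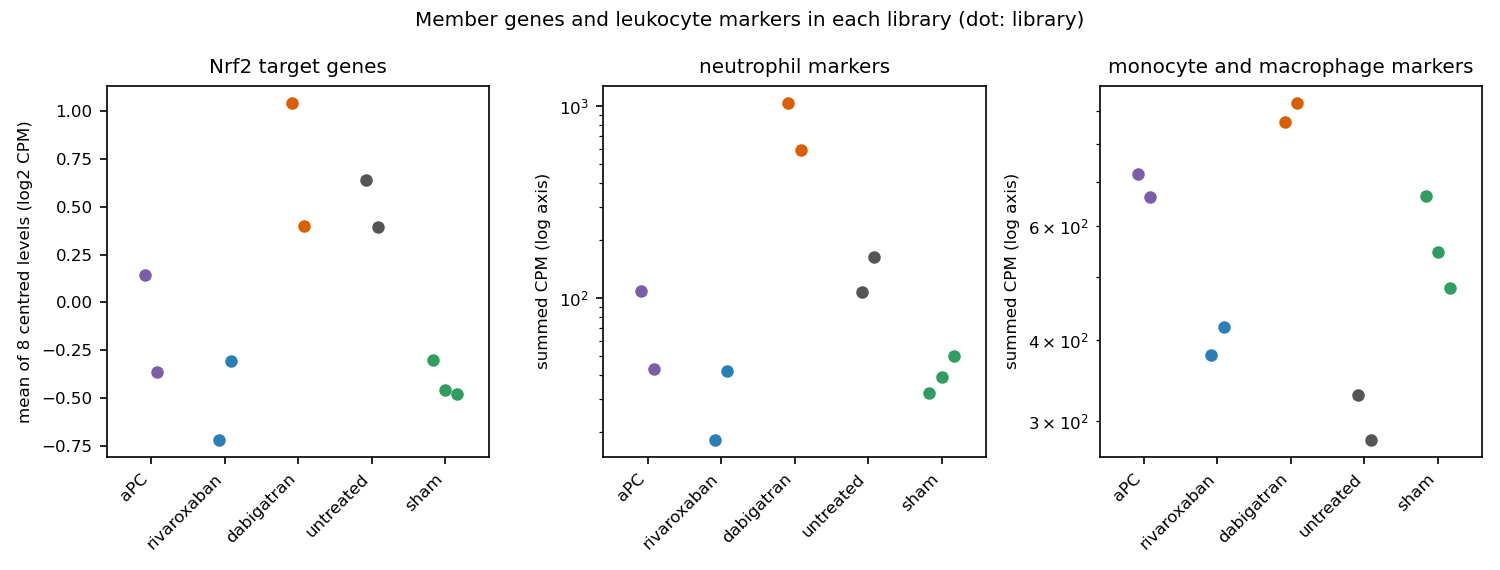
Mean centred level of the 8 members in log2 units (left), and summed CPM on a log axis of 8 neutrophil markers (middle) and 10 monocyte and macrophage markers (right), in each library of the 5 groups. Both dabigatran libraries are highest for the marker sums, while for the members 1 dabigatran library is highest at 1.04 and the other, at 0.40, lies below untreated replicate 17 at 0.64. Untreated libraries are lowest for macrophage markers, at 281 to 329 CPM.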

How the data were processed

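PolyA RNA from 500 ng of heart RNA was sequenced with a kit that marks the strand, per the labels' protocols. The deposited values are log2 CPM that the authors scaled by TMM. The submitters' processing notes name bcl2fastq, FastQC, Trim Galore, STAR, edgeR and build mm10; versions, annotation, counter and strand setting are not given in the sources used. In every library 100% of low values were whole multiples of 1 read, to within 0.05 of a read, once the lowest value (-3.93) was taken off. A count of 3 reads corresponds to -2.83 to -2.41 log2 CPM, and folds near that level are understated.

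Genes with a value of at least 0 in at least 3 libraries were tested. Two-sided limma-trend (limma 3.58.1, R 4.3.3) fitted 5 group means over 11 libraries. Calls are at a p, adjusted by the Benjamini-Hochberg method over 13541 genes per comparison, under 0.05. Errors after ± are limma standard errors, with n of 2 per group and 3 in sham. No label says that libraries are from separate animals, so p-values measure the spread between these libraries. The procedure was tested on simulated data in which all groups had the same spread. That test does not cover the wider spread of the untreated pair. Exon overlaps and lengths came from GENCODE M21, which held 16654 of 16658 identifiers.

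The members, lists and comparisons were chosen with earlier results of these data known. All members are named, and of each list the 4 genes with the smallest F test p and a few set regulators. Atf4, Ddit3, Chac1, Idh1, Nox4, Glrx and Aox1 were named after their values were seen. Alternatives were other filters, scalings, weights, a prior count of 0.5, fits of 2 groups, each library left out, and voom, which was chosen after seeing the data. Some results of the lists are not reported here.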

Additional observations from a re-analysis of the deposited data

How the results depend on the processing

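Of 23 member calls over the 10 comparisons, 23 remained with no filter, with a filter at 2 log2 CPM in 3 libraries, with a prior count of 0.5, with libraries centred on their median and with voom on recovered reads (chosen after seeing the data), 20 with quantile normalization, 13 in fits of only the 2 groups compared and 12 with library weights. With library weights the members called were 0 in untreated against sham, 0 in rivaroxaban against untreated, 0 in dabigatran against untreated, 1 in aPC against untreated, 7 in rivaroxaban against dabigatran and 2 in aPC against rivaroxaban. In fits of only the 2 groups they were 0, 0 and 0 for rivaroxaban, dabigatran and aPC against untreated, 7 in rivaroxaban against dabigatran, 1 in aPC against rivaroxaban and 5 in aPC against dabigatran. Quantile normalization gave 1 in dabigatran against untreated. In the comparisons with untreated hearts, library weights and fits of only the 2 groups also called fewer of all genes. The cause of these shifts was not tested.

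With each library left out, the members called ranged from 1 to 6 in untreated against sham, 0 to 5 in rivaroxaban and in aPC against untreated, 0 to 4 in dabigatran against untreated, 2 to 6 in dabigatran against sham, 3 to 7 in rivaroxaban against dabigatran, 1 to 7 in aPC against dabigatran and 4 to 7 by the F test. A lone library left in a group is assumed to vary like the other groups. Without untreated replicate 17 the member calls remained and others were added, but calls over all genes also rose in the comparisons with untreated hearts. The member calls added there are therefore not particular to the members. The 1 reversal was Srxn1 in untreated against sham, at -1.09 without untreated replicate 17 and 1.81 without untreated replicate 19. Over all the alternatives together, 31 member differences changed sign without a call on either side, and 1365 kept both their sign and their call. Centring moved the median of all genes by up to 0.13 log2 units. The planned edgeR test was not run, because the deposited unit is log2. No paired analysis was possible because the groups share no replicate numbers. Slc7a11, with 68 to 406 reads, has the shallowest counts of the members.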
